A study of Drosophila melanogaster with 16 samples.

Results

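The Drosophila genes of protein folding in the endoplasmic reticulum (ER) and of the unfolded protein response described here are Gp93, Pdi, Cnx99A, ERp60, Ero1L, Xbp1 and PEK. They were found by their exact symbols, and all 7 were present among the 9977 genes of the count table and among the 6526 genes that passed the filter on low counts. The measurements are poly(A) RNA-seq counts from S2 cells, a line derived from fly embryos. Cells received either dsRNA against imp, which encodes an RNA-binding protein of the IGF2BP family, or dsRNA against luciferase, a firefly gene that flies lack. Both kinds of dsRNA were given at 40 µg/ml with daily boosts, and cells were collected on day 3 of treatment. For this experiment the supplement names different imp dsRNA fragments but a single luciferase fragment. The sample titles do not say which imp fragment each library received. There were 3 libraries per treatment, from replicates made on different days. Libraries with the same replicate number were taken to share an experiment day, which the sample labels do not state. Experiment days are numbered below by replicate. The iCLIP, PAR-iCLIP and RIP-seq samples of the series were not analysed here.

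Secreted and membrane proteins enter the ER lumen unfolded. There, chaperones hold them, lectins bind their sugar chains, and disulphide isomerases and oxidases join their cysteines. When unfolded protein accumulates, sensors in the ER membrane act on transcription and translation. The sensor Ire1 removes an intron from Xbp1 mRNA in the cytoplasm so that an active transcription factor is made, and another, PEK (the fly PERK), phosphorylates the translation factor eIF2alpha. S2 cells resemble haemocytes, the blood cells of the fly, which secrete extracellular matrix proteins such as collagen IV.

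Library totals ran from 1081882 to 5463535 counts in the imp dsRNA libraries, against 2017317 to 2865083 in the luciferase dsRNA libraries. Imp itself was lower in all 3 pairs, with 233, 324 and 455 CPM (counts per 1000000 counts, scaled by TMM) after imp dsRNA, against 660, 738 and 814 CPM after luciferase dsRNA. The fitted log2 fold change of Imp was -1.18 (SE 0.18), with an adjusted p of 0.113 by edgeR's quasi-likelihood test, and DESeq2 called it at an adjusted p of 0.00018. The haemocyte markers had a summed level of 6593 to 12708 CPM after imp dsRNA, against 5367 to 7150 CPM after luciferase dsRNA. Cg25C, vkg and Fer1HCH had the highest levels of the list, none below 1040 CPM in any library. The markers srp, ush and Pxn did not fall below 38.0 CPM. Hml stayed at 2.92 to 9.03 CPM, eater ranged from 3.21 to 29.8 CPM and Sr-CI from 1.82 to 112 CPM, and NimC1 had almost no counts. The fat body, muscle and germline marker lists each summed to less than 3 CPM in every library. No gene of these lists passed the filter on low counts, and CPM of such genes was not scaled by TMM. Only 2 of the 4 fat body markers sought were found in the count table. Of the neuronal markers, elav and brp passed the filter, while n-syb and Syt1 did not, reaching 4.62 and 4.99 CPM at most. The list summed to 94.7 to 133 CPM after imp dsRNA, against 88.6 to 123 CPM after luciferase dsRNA. In bulk samples, fewer cells of a type and less RNA per cell cannot be told apart.

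The 7 genes fell into 2 ranges of abundance, which were compared as CPM per kilobase of exon. Pdi was the most abundant, at 1335 ± 211 CPM per kb after imp dsRNA, against 1222 ± 160 after luciferase dsRNA (SD, n = 3 each), which placed it 86th of 6376 genes with a known length after luciferase dsRNA. Xbp1 followed, at 582 ± 93.8 CPM per kb after imp dsRNA, against 584 ± 152 after luciferase dsRNA. Gp93, ERp60 and Cnx99A formed a group at 461 ± 58.7, 390 ± 27.6 and 350 ± 99.2 CPM per kb after imp dsRNA, against 407 ± 32.6, 389 ± 84.0 and 297 ± 80.0 after luciferase dsRNA. These 5 genes, 4 folding factors and 1 transcription factor, all ranked within the top 279 genes after luciferase dsRNA. Ero1L and PEK were far scarcer, at 34.3 ± 2.58 and 29.0 ± 7.40 CPM per kb after imp dsRNA, against 31.8 ± 10.4 and 24.1 ± 2.18 after luciferase dsRNA, with ranks of 2346 and 2852. The gap between Cnx99A and Ero1L, a log2 difference of 3.27 on average over the libraries, was present in 6 of 6 libraries, and the libraries' ranges did not overlap.

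**Figure D1:**
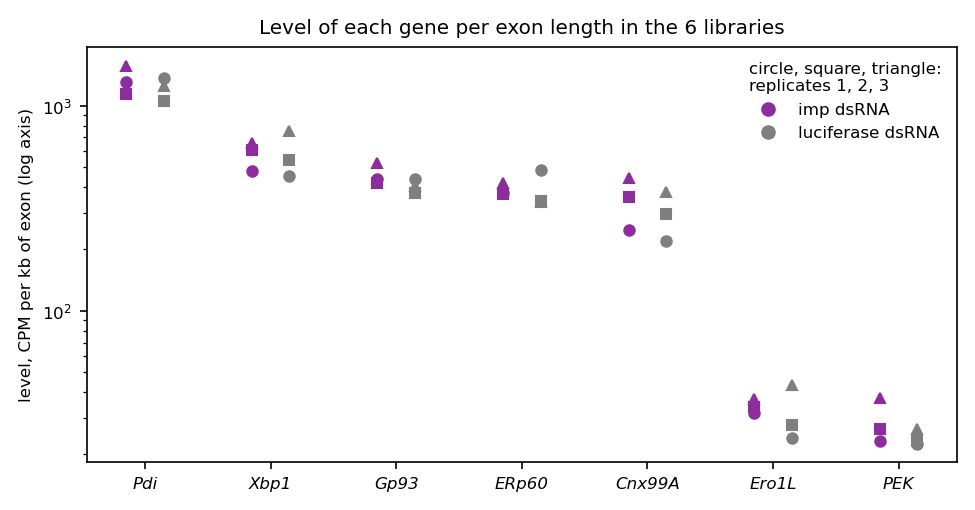
Level of each gene in CPM per kilobase of exon on a log axis, with imp dsRNA libraries in purple on the left and luciferase dsRNA libraries in grey on the right of each gene, and the marker shape giving the replicate number. Pdi lies above all other genes in each library, and Ero1L and PEK lie at or below 43.6 CPM per kb while the other 5 genes lie at or above 218.

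Most neighbours in this order were not separated by more than the spread over libraries. Pdi was above Xbp1 in 6 of 6 libraries, and its lowest value of 1050 CPM per kb exceeded the highest Xbp1 value of 752. Xbp1 was also above Gp93 in 6 of 6 libraries, but their ranges overlapped. Gp93 was above ERp60 in 5 of 6 libraries, ERp60 above Cnx99A in 4 of 6, and Ero1L above PEK in 5 of 6, so the order of these neighbours changed from library to library. In total, the 7 genes took 0.694%, 0.719% and 0.802% of the counts in imp dsRNA replicates 1, 2 and 3, and 0.678%, 0.672% and 0.770% in luciferase dsRNA replicates 1, 2 and 3. That share of the raw counts was higher after imp dsRNA in each pair, but the TMM-scaled sum was not. It was 6835, 7025 and 8818 CPM after imp dsRNA, against 7055, 6295 and 7560 CPM after luciferase dsRNA, lower after imp dsRNA in pair 1, and the treatments overlapped on both scales.

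In the BDGP6 annotation, the genes lie on 3 chromosome arms. Pdi (3L, 15137738 to 15142840) and Ero1L (3L, 4170404 to 4173789) share an arm, as do ERp60 (2R, 11887568 to 11890979) and Xbp1 (2R, 21143545 to 21145750). Gp93 (3R, 27948711 to 27952151), Cnx99A (3R, 29315254 to 29319644) and PEK (3R, 5458563 to 5464753) are on a further arm. None overlaps a gene on its own strand. Gp93, Pdi and ERp60 each overlap a gene on the opposite strand (CG4951, asRNA:CR45396 and cuff), but the authors counted only reads on the gene's own strand. The counts include all exons of a gene, so spliced and unspliced Xbp1 mRNA are not separated, and phosphorylation of PEK is not measured.

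The main comparison asks whether the mRNA of these genes differed after depletion of Imp. No gene of the 7 was called by edgeR's quasi-likelihood test at an adjusted p of 0.05, where 0% of all genes were called. At an unadjusted p of 0.05, 0 of the 7 passed, against 2.88% of all genes, and DESeq2 and limma-voom also called 0 of the 7. Fitted log2 fold changes were small and all above 0, from 0.013 for Xbp1 to 0.24 for PEK, with a median of 0.16. The median over all genes tested was -0.0067, and 48.5% of them were above 0.

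Gp93, the ER form of the Hsp90 chaperone, had 1242, 1187 and 1499 CPM after imp dsRNA, against 1252, 1068 and 1153 CPM after luciferase dsRNA. Replicate 3 after imp dsRNA was the highest of the 6 libraries, and the treatments overlapped. The log2 fold change was 0.17 (SE 0.19, 95% interval -0.23 to 0.58), with an adjusted p of 0.999 by edgeR. Cnx99A, the main calnexin, is a membrane-bound lectin that retains glycoproteins until they fold. It had 689, 999 and 1243 CPM after imp dsRNA, against 608, 825 and 1055 CPM after luciferase dsRNA. Each imp dsRNA library was above the luciferase dsRNA library of the same number, yet the treatments overlapped, and the day 1 libraries were the lowest in both. Its log2 fold change was 0.23 (SE 0.17, 95% interval -0.14 to 0.60), with an adjusted p of 0.999 by edgeR.

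Pdi encodes the main disulphide isomerase, which makes, breaks and reshuffles disulphide bonds. Its level was 3021, 2666 and 3638 CPM after imp dsRNA, compared with 3179, 2443 and 2909 CPM after luciferase dsRNA. The lowest library of each treatment was replicate 2. The log2 fold change was 0.12 (SE 0.21, 95% interval -0.34 to 0.59). ERp60, an isomerase that acts on glycoproteins in mammals, had 678, 673 and 762 CPM after imp dsRNA, against 879, 620 and 612 CPM after luciferase dsRNA. The means were 704 ± 49.9 CPM after imp dsRNA and 703 ± 152 CPM after luciferase dsRNA (SD, n = 3 each), and replicate 1 after luciferase dsRNA stood above the other 5 libraries. The log2 fold change of ERp60 was 0.018 (SE 0.19, 95% interval -0.38 to 0.42).

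Ero1L, the oxidase that recharges disulphide isomerases, was counted with 371, 79 and 99 reads after imp dsRNA, against 139, 145 and 188 reads after luciferase dsRNA, the fewest of the 7 genes. In CPM these were 66.9, 71.3 and 77.7 after imp dsRNA, against 50.5, 58.3 and 91.5 after luciferase dsRNA. The luciferase dsRNA libraries spread on both sides of the imp dsRNA libraries. The log2 fold change was 0.16 (SE 0.19, 95% interval -0.24 to 0.56).

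PEK, the sensor kinase, had 113, 129 and 182 CPM after imp dsRNA, against 110, 113 and 129 CPM after luciferase dsRNA. Replicate 3 after imp dsRNA was the highest library, and in each pair the imp dsRNA library was the higher one, although the treatments overlapped. Its log2 fold change of 0.24 (SE 0.16, 95% interval -0.11 to 0.59) was the largest of the 7, and its adjusted p was 0.999 by edgeR (0.163 unadjusted). Xbp1, the transcription factor of the Ire1 branch, had 1025, 1300 and 1416 CPM after imp dsRNA, against 976, 1169 and 1610 CPM after luciferase dsRNA. The highest and the lowest library were both luciferase dsRNA libraries. The log2 fold change was 0.013 (SE 0.19, 95% interval -0.39 to 0.41).

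**Figure D2:**
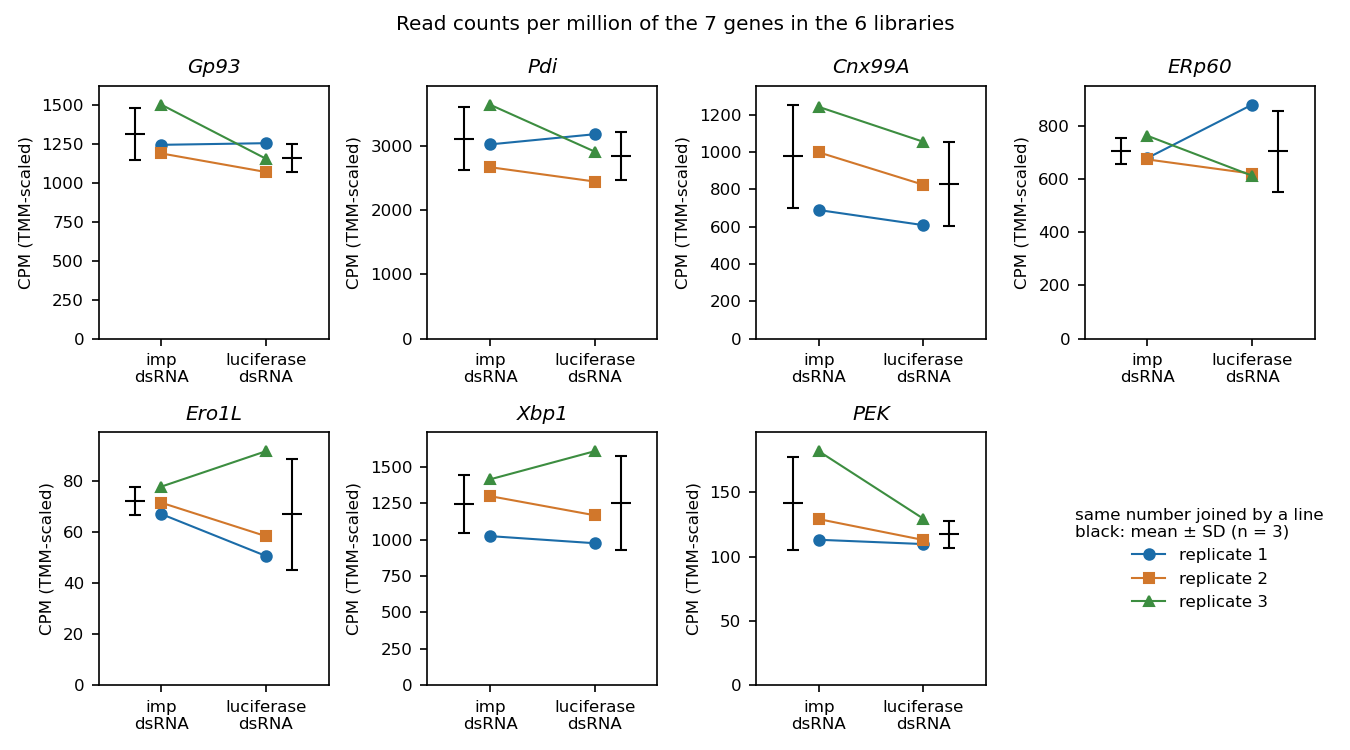
TMM-scaled CPM of each gene, with imp dsRNA on the left and luciferase dsRNA on the right, a line joining libraries of the same replicate number, and black bars giving the mean ± SD of 3 libraries. The treatments overlap for all 7 genes, and the 3 lines run the same way only for Cnx99A and PEK.

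The 95% intervals of the 7 genes all spanned 0. On the linear scale the lowest lower bound was 0.764-fold (Xbp1) and the highest upper bound was 1.52-fold (Cnx99A), so these data leave room for changes within that range. None of the 7 genes had treatments that did not overlap, against 2.8% of all genes above and 3.39% below. Cnx99A and PEK were higher after imp dsRNA in all 3 pairs, as were 11.3% of all genes. None of the 7 was lower in all 3 pairs, as were 12.2% of all genes. The smallest values changed sign when replicates were left out. Xbp1 stood at -0.023 without replicate 1 and at -0.056 without replicate 2, and ERp60 stood at -0.030 without replicate 2 and at -0.13 without replicate 3. Other values kept their sign but moved by over 1.5 times. Without replicate 3, Gp93, Pdi and PEK stood at 0.071, 0.028 and 0.11, and Ero1L at 0.36. Without replicate 1, Ero1L stood at 0.0094 and Pdi at 0.22.

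**Figure D3:**
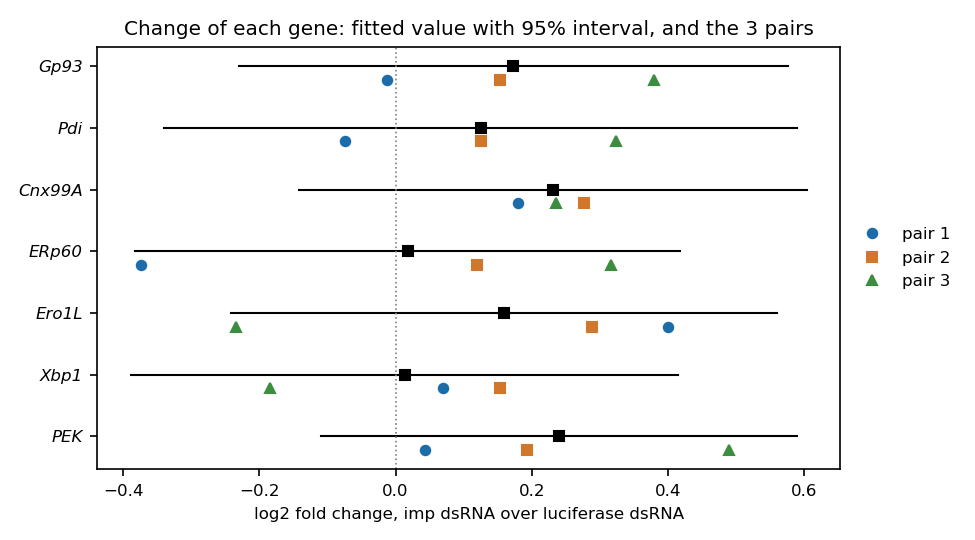
Fitted log2 fold change (black square) with its 95% interval (line) for each gene, imp dsRNA over luciferase dsRNA, and below it the log2 ratio of each pair of libraries with the same replicate number. All 7 intervals cross 0, and pair 3 (green) gives the highest ratio for Gp93, Pdi, ERp60 and PEK but the lowest for Ero1L and Xbp1.

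The pairs did not give the same picture. The 7 genes had a median log2 ratio of 0.043 in pair 1, 0.15 in pair 2 and 0.32 in pair 3, while the medians over all genes tested were between -0.015 and 0.000047. In pair 3, Gp93, Pdi, ERp60 and PEK had log2 ratios of 0.38, 0.32, 0.32 and 0.49. The same pair gave -0.23 for Ero1L and -0.18 for Xbp1, the reverse of pairs 1 and 2, where Ero1L stood at 0.40 and 0.29 and Xbp1 at 0.070 and 0.15. Cnx99A had the most even ratios, at 0.18, 0.28 and 0.24. Imp itself had log2 ratios of -1.50, -1.18 and -0.84 in pairs 1, 2 and 3, so it fell least in pair 3. Replicate 3 after imp dsRNA was the highest of the 6 libraries for 4 of the 7 genes, and for 18.6% of all genes tested. Whether the pairs differed from each other cannot be tested, because each pair holds 1 library of each treatment.

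The second comparison is between the experiment days, taken from the replicate numbers. Here 0 of the 7 were called by edgeR's quasi-likelihood test, where 3.17% of all genes were, and limma-voom also called 0. At an unadjusted p of 0.05, 1 of the 7 (Cnx99A) passed, against 14.6% of all genes. The range of the day means had a median of 0.46 on the log2 scale over the 7 genes and 0.39 over all genes. A replicate number may stand at once for a culture, a treatment and a library preparation, and these cannot be told apart.

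Cnx99A had the widest range of day means among the 7 genes. Its level on day 2 exceeded that on day 1 by 0.49 on the log2 scale, and its level on day 3 exceeded that on day 1 by 0.82, in a fit that kept the treatment. The edgeR p was 0.00677 before adjustment and 0.128 after it. DESeq2's likelihood ratio test, however, called it at an adjusted p of 0.0346, as 1 of 155 genes called among 9596. When single libraries were left out, the edgeR call depended on which one. Without replicate 3 after imp dsRNA, Cnx99A was called together with Ero1L and Xbp1. Without replicate 3 after luciferase dsRNA, Cnx99A and PEK were called. Many more of all genes were also called in those fits than with all libraries. Without replicate 1 or replicate 2 of either treatment, none of the 7 genes was called. In each of these fits 1 day rested on 1 library, which was assumed to vary like the others.

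None of the other 6 genes passed the day test with all libraries. Xbp1, Ero1L and PEK were 0.60, 0.54 and 0.47 higher on day 3 than on day 1 on the log2 scale, with adjusted p-values of 0.373, 0.395 and 0.407 by edgeR. Gp93, Pdi and ERp60 differed between days 1 and 3 by 0.077, 0.070 and -0.18, and between days 1 and 2 by -0.15, -0.28 and -0.27. In both treatments, Cnx99A, Ero1L, Xbp1 and PEK were lowest in replicate 1 and highest in replicate 3, a pattern seen in 5.85% of all genes and picked out after the values were seen. The haemocyte markers Sr-CI, eater and Fer1HCH were called between days. Sr-CI, a scavenger receptor, had 4.15, 21.7 and 112 CPM in imp dsRNA replicates 1, 2 and 3, and 1.82, 8.44 and 58.4 CPM in luciferase dsRNA replicates 1, 2 and 3. The part of this difference in the day values of the 7 genes was not tested.

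**Figure D4:**
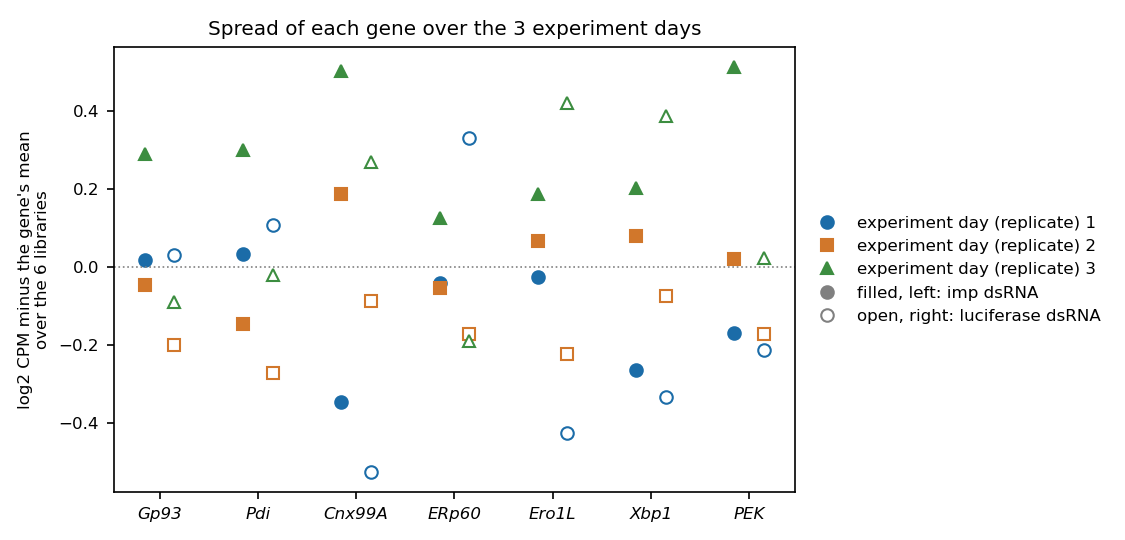
Log2 CPM of each gene in each library minus the gene's mean over the 6 libraries, with the experiment day given by colour and shape, imp dsRNA filled and on the left, luciferase dsRNA open and on the right. For Cnx99A, Ero1L, Xbp1 and PEK the day 1 libraries are lowest and the day 3 libraries highest in both treatments, whereas ERp60 has its highest library on day 1 after luciferase dsRNA.

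Around these genes, 67 others of the ER folding and secretory pathway were tested. None of the 67 was called by edgeR's quasi-likelihood test, 0 had an unadjusted p under 0.05, and DESeq2 and limma-voom also called 0. Of these genes, 46 had a log2 fold change above 0 and 21 below, with a median of 0.066. In all 3 pairs, 9 of the 67 were higher and 3 were lower after imp dsRNA, against the 11.3% and 12.2% of all genes. Treatments did not overlap for 3 of them, against 2.8% of all genes in this direction: the peroxiredoxin Jafrac2, the degradation lectin Edem1 and the signal peptidase subunit Spase25, all higher after imp dsRNA and named after their values were seen.

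Among the other lumenal chaperones and lectins, 8 of 9 were above 0, with a median of 0.16. Hsc70-3, the fly BiP and the main Hsp70 of the ER, had the highest value of the list, a log2 fold change of 0.29 (SE 0.25). It had 2437, 2401 and 4508 CPM after imp dsRNA, against 2927, 2099 and 2343 CPM after luciferase dsRNA, so 1 library, replicate 3 after imp dsRNA, stood far above the other 5. Calreticulin (Crc), the soluble partner of calnexin, had 0.086 (SE 0.23), and CG14715 had the lowest value, -0.21. Of the other isomerases and redox partners, 6 of 7 were above 0 with a median of 0.24, the highest median of the 6 lists. The median log2 ratio of this list was 0.037, 0.055 and 0.49 in pairs 1, 2 and 3. All 7 genes were highest in 1 library, replicate 3 after imp dsRNA, as were 18.6% of all genes tested. The highest log2 fold change was that of prtp, an ER protein of the thioredoxin family and a ligand of the phagocytosis receptor Draper. It stood at 0.35 (SE 0.18, unadjusted p = 0.0719, adjusted p = 0.999 by edgeR), and the lowest was CG9302, at -0.032.

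The other sensors and effectors of the unfolded protein response were split evenly, 5 of 10 above 0 and 5 below, with a median of -0.034. Ire1, the enzyme that splices Xbp1 mRNA, had a log2 fold change of 0.10 (SE 0.25), and Atf6, the sensor that is cleaved in the Golgi, had 0.13 (SE 0.19). The transcription factor crc (a different gene from Crc), the fly ATF4 whose translation depends on PEK, had -0.18 (SE 0.17) and was lower in all 3 pairs. It had 695, 620 and 665 CPM after imp dsRNA, against 738, 689 and 827 CPM after luciferase dsRNA, and the treatments overlapped. Thor, the fly 4E-BP, was lowest in the list at -0.28, and the protease S2P, which cleaves ATF6 in mammals, was highest at 0.23.

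In the remaining lists, medians were between 0.015 and 0.091. ER-associated degradation had 9 of 12 genes above 0 and a median of 0.088, from Npl4 at -0.24 to Edem1 at 0.30. Translocation and signal peptide removal had 12 of 22 above 0 and a median of 0.015, from the signal recognition particle protein Srp14 at -0.23 to the channel subunit Sec61alpha at 0.33. The oligosaccharyl transferase, which attaches sugar chains, had 6 of 7 above 0 and a median of 0.091, from l(2)k12914 (Dad1) at -0.21 to Ost48 at 0.26. Between days, edgeR called 0 of the 67 genes, against 3.17% of all genes, and 6 had an unadjusted p under 0.05, against 14.6% of all genes.

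**Figure D5:**
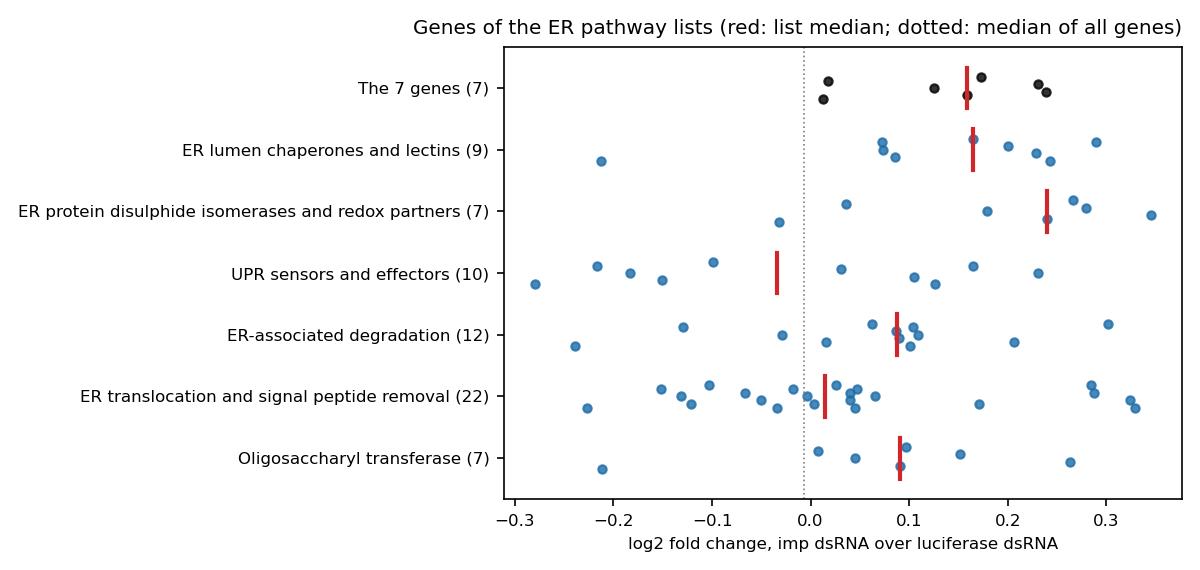
Log2 fold change, imp dsRNA over luciferase dsRNA, of the 7 genes (black) and of the tested genes of 6 other ER lists (blue, number in parentheses), with the list median in red and the median of all genes as a dotted line. Medians run from -0.034 for the sensors and effectors to 0.24 for the isomerases and redox partners. Every list has genes below 0 except the 7 genes described here, of which Xbp1 and ERp60 lie close to 0, at 0.013 and 0.018.

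Pair 3 stood apart in several of these lists. In pair 3, 51 of the 67 genes were above 0 with a median log2 ratio of 0.29. In pairs 1 and 2 only 26 and 27 were, with medians of -0.086 and -0.058. Of all genes tested, 49.7%, 50.0% and 48.8% were above 0 in pairs 1, 2 and 3. The oligosaccharyl transferase genes had medians of -0.26, -0.12 and 0.56 in pairs 1, 2 and 3, with 1, 1 and 7 of the 7 genes above 0. The translocation genes had medians of -0.19, -0.081 and 0.39, and the isomerases and redox partners 0.037, 0.055 and 0.49. In contrast, ER-associated degradation had 0.040, 0.0093 and -0.015. Without replicate 3 of both treatments, the median of the 67 genes was -0.042. Collagen IV, a secreted product of haemocytes, showed the same pair as the highest. Cg25C, a collagen IV chain, had 3078, 3475 and 5535 CPM after imp dsRNA, against 3066, 2205 and 2520 CPM after luciferase dsRNA, and vkg, the other chain, had 1583, 1471 and 2574 CPM after imp dsRNA, against 1467, 1151 and 1052 CPM after luciferase dsRNA. Both had unadjusted p-values under 0.05 (0.0339 and 0.0301) and adjusted p-values of 0.999 by edgeR. Sr-CI was the third marker under 0.05, with a log2 fold change of 1.09 (SE 0.24), higher after imp dsRNA in all 3 pairs, and edgeR p-values of 0.000646 before and 0.843 after adjustment. Of the 9 haemocyte markers tested, 8 had values above 0, with a median of 0.47. Their part in the levels of the ER genes was not tested.

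The genes whose log2 CPM followed each of the 7 most closely over the 6 libraries were sought among 5910 genes, as a description over libraries that share days and treatments. Cnx99A was closest to CG32170 and CG10550 (Pearson r of 0.995 and 0.992), and PEK to Idgf3, a secreted chitinase-like protein, and Nat1 (0.993 and 0.99). Xbp1 was closest to the Polycomb group gene Psc and to PGRP-LF (0.992 and 0.991), and Ero1L to CG1021 and the polarity gene par-6 (0.989 and 0.985). Gp93 and ERp60 each had a ribosomal protein gene among their closest, RpL5 (0.989) and RpLP1 (0.987), beside CG16896 (0.985) and p47 (0.996). Pdi was closest to CG15098 and to osa, a chromatin remodelling gene (0.989 and 0.988). Nothing on shared function or control is drawn from these values.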

How the data were processed

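The authors sequenced poly(A) RNA, aligned it by BWA-PSSM against the fly (dm3) and yeast genomes jointly, and counted same-strand reads that overlapped a single gene. The deposited counts were not normalized. The sources used here do not give mapping versions or say whether duplicates were collapsed with the random barcode of the adaptor. The authors' own comparison columns (group means, fold changes and p-values) were not used, except that symbols were read from that table. The row that names no gene held 0 counts.

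The fit was made with edgeR 4.0.16 under R 4.3.3, after filtering by filterByExpr and scaling by TMM, and used the quasi-likelihood test with Benjamini-Hochberg adjustment at 0.05 over 6526 genes. The replicate number was a block, since the supplement gives different days for the replicates and a dispersion estimate that takes them as paired, and deviations of same-numbered libraries correlated at 0.48, 0.36 and 0.30. Day was tested on the block's coefficients. The SE is the log2 fold change over the root of F, and intervals use 13.0 degrees of freedom, 2 of them residual. DESeq2 1.42.0 and limma-voom (limma 3.58.1), other scalings and filters, and leaving out replicates were alternatives. Lengths and positions came from BDGP6, a later build than dm3, by identifier for 9546 genes and by symbol for 189, among them Pdi. Log2 CPM had a prior count of 2. Named genes are Imp, the 7 genes, the highest and lowest of each ER list and any with an unadjusted p under 0.05, the textbook partners Hsc70-3, Crc, Ire1, Atf6 and crc, and the closest pair of genes to each of the 7. Jafrac2, Spase25 and Tapdelta fall outside this rule, as do the cell type markers named singly, and all were chosen after their values were seen. CG9906, CG10029 and Spase18-21 were not analysed here. The 7 genes and the lists were chosen with earlier results of these data known. The sources describe the replicates as biological triplicates made on different days.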

Additional observations from a re-analysis of the deposited data

How the results depend on the processing

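Under every alternative tried for the treatment comparison, 0 of the 7 genes were called. Without the replicate block, 0 genes were called in all, 72 of 6526 had an unadjusted p under 0.05, and Xbp1 stood at -0.0059 on the log2 scale; the pairing changed no call among the 7 genes. Over all genes, edgeR without a filter called 4 genes and DESeq2 with the block called 1, against 0, and leaving out replicates gave 0 to 58, the 58 without replicate 3. Leaving out each replicate, the log2 fold change ran from -0.056 to 0.11 for Xbp1 and from -0.13 to 0.21 for ERp60, and from 0.0094 to 0.36 for Ero1L, 0.028 to 0.22 for Pdi, 0.071 to 0.26 for Gp93, 0.11 to 0.34 for PEK and 0.21 to 0.25 for Cnx99A. Between days, no filter gave 512 genes and a minimum of 10 counts in every library gave 138, against 207, and leaving out single libraries gave 155 to 1333 genes and 0 to 3 of the 7 genes; DESeq2's likelihood ratio test called 1 of the 7. The cause of these differences was not tested. The alternatives for the other 67 ER genes were added after the data were seen. Depth limits Ero1L and PEK most, with 79 and 143 counts in replicate 2 after imp dsRNA.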

Other observations

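The genes given here were picked out after their values were seen, and their ratios in single pairs were not tested. Ire1 had 68.2, 114 and 60.4 CPM after imp dsRNA and 39.2, 94.0 and 108 CPM after luciferase dsRNA, which gave log2 ratios of 0.78, 0.27 and -0.83 in pairs 1, 2 and 3. Xbp1 had 0.070, 0.15 and -0.18 and Ero1L 0.40, 0.29 and -0.23 in the same pairs. The same signs were also seen in genes of the degradation and translocation lists. Hsc70-3 had -0.26, 0.19 and 0.94, and prtp had -0.056, 0.40 and 0.73. The translocation genes Tapdelta and Sec61alpha had the highest ratios of the ER genes in pair 3, 1.21 and 1.13, against -0.20 and 0.083 in pair 1 and -0.010 and -0.21 in pair 2.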
